A study of Mus musculus with 8 samples.

Results

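The ligands and receptors of the TGF-beta and BMP family carried called m6A peaks in mouse vascular smooth muscle cells (VSMCs). No peak of theirs passed the test for a change after knockdown of Mettl14, nor did any of the 4929 regions tested over all genes. Only regions with a peak in all 4 peak lists were tested, which were 9 of the 11 regions of these genes. The 10 genes described here are the ligands Tgfb1, Tgfb2 and Tgfb3 and the receptors Tgfbr1, Tgfbr2, Tgfbr3, Bmpr1a, Bmpr2, Acvr1 and Acvr2a, of 55450 annotated genes. A gene was counted as carrying a peak where the summit of a called peak, the base with the strongest signal, lay in one of its annotated exons. By this rule 9 of the 10 genes had a summit in at least 1 peak list, against 6075 annotated genes in all, and Tgfbr1 had none.

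To find where m6A lies in VSMC transcripts and what happens to it when a subunit of its writer is depleted, m6A-RIP-seq was performed on primary VSMCs grown from the descending aorta of adult C57BL/6J mice. All cells received a lentivirus. In shCTR cells it carried a hairpin against a plant microRNA, and in shMettl14 cells a hairpin against Mettl14, and only 1 hairpin against Mettl14 entered this experiment. RNA was broken into fragments of about 200 nt, fragments bound by an anti-m6A antibody (IP) were sequenced beside the unselected input, and the authors called peaks in each IP relative to the matching input. The 8 samples give 4 lists of peaks, shCTR A and B and shMettl14 A and B, with 2 lists per group. Nothing states that A and B were separate cultures, so the spread between them may be technical.

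TGF-beta and BMP ligands are secreted dimers. They bring type II receptor kinases (Tgfbr2, Bmpr2, Acvr2a) and type I receptor kinases (Tgfbr1, Bmpr1a, Acvr1) together at the cell surface, the type II kinase switches on the type I kinase, and Smad proteins carry the signal to the nucleus. In the artery wall this pathway is known for holding smooth muscle cells in the contractile state and for driving matrix production. N6-methyladenosine (m6A) is written into RNA by a complex of Mettl3 and Mettl14, mostly in the sequence DRACH, where R stands for either purine, D for any base but C and H for any base but G, and its sites are known to gather around stop codons. Reader proteins bind it and alter the stability and translation of the transcript.

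The shCTR lists held 11158 (A) and 8655 (B) summits and the shMettl14 lists 13675 (A) and 9256 (B). The median summit was covered by 13 to 16 overlapping IP fragments, a number recovered from the deposited fold enrichment and p-value, so a typical peak rests on few fragments and its error is large. Each list holds only peaks that passed the caller's threshold, so a missing peak means that none was called, not that m6A is absent, and a peak list measures neither transcript level nor knockdown. Mettl14 itself had 0 summits in every list. Of the cell type markers, Lmod1 of smooth muscle had 19 summits, in all 4 lists, and Myh11 had 4, in 3 lists. Acta2, Tagln, Cnn1 and the other 2 of the 7 had none. Of 5 endothelial markers Cdh5 had 18 summits over the 4 lists, Pecam1 had 4 and Kdr 3, and Tek and Vwf had none. Of 4 fibroblast markers Pdgfra had 4 summits and Dpt, Dpep1 and Ly6a none, and the 4 leukocyte markers had none. Summits on endothelial transcripts stood in shCTR and shMettl14 lists alike, and their part in the values given here was not tested.

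Summits of the TGF-beta and BMP genes lay mostly past the stop codon. Of 54 summits over the 4 lists, 34 were in a 3′ UTR, 15 in coding sequence and 5 in a 5′ UTR. Tgfb2 alone held 14 of the 34, within 1 stretch of its 3′ UTR. Counted as sites found in every list, 5 of 9 lay in a 3′ UTR. The share in 3′ UTRs was 66.7% and 60.0% in the shCTR lists A and B and 63.2% and 61.5% in the shMettl14 lists. Over all summits in coding transcripts it was lower in every list, at 29.6% to 32.0%. Within 200 nt of the stop codon lay 41.2% ± 3.88 (SD, n = 4 lists) of the summits of these genes and 25.4% to 27.1% of all summits. Several of the 54 summits share a transcript and the same site recurs in each list, so these shares describe a small set of sites and were not tested.

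**Figure D1:**
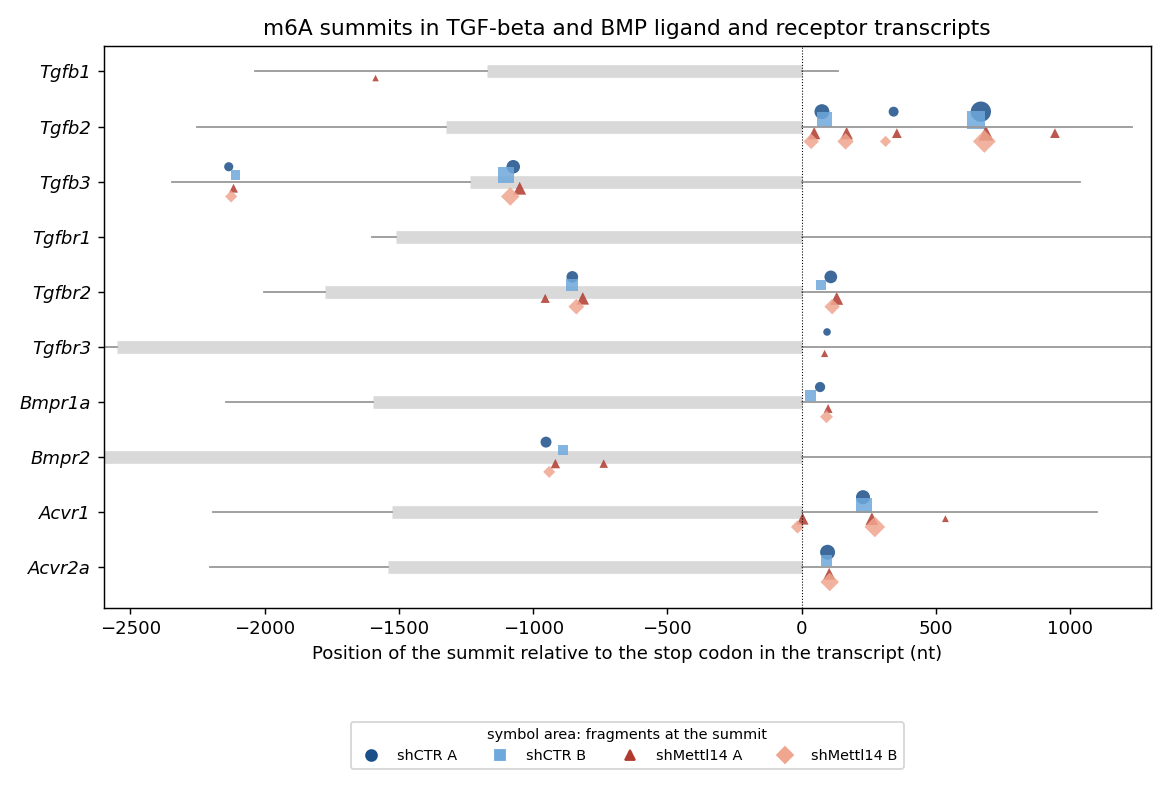
Position of every summit in the 10 transcripts relative to the first base of the stop codon (x axis, nt, negative toward the 5′ end), by gene (rows) and list (colour and symbol), with symbol area in proportion to the IP fragments at the summit. Grey bars mark coding sequence and thin lines the UTRs, and some transcripts extend beyond the axis. Sites recur over the lists: Acvr2a summits sit within 11 nt of each other, and Tgfbr1 has no summit.

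Merging overlapping intervals of the 4 lists gave 11361 regions, and 11 of them held a summit of these genes. A peak was present in all 4 lists in 9 of the 11 regions, against 43.4% of all regions. These 9 regions belong to 7 genes: Tgfb2, Tgfb3, Tgfbr2, Bmpr1a, Bmpr2, Acvr1 and Acvr2a. Of genes with a complete coding transcript, 16.1% had a summit in all 4 lists. None of the 11 regions was present in both lists of one shRNA and absent from both of the other, a pattern that 3.49% of all regions showed. The authors' overlap files, which list the intervals shared by both replicates of a group, contained the 9 regions for shCTR and for shMettl14, and contained neither of the other 2.

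A sequence is shown for each of the 9 sites to give a candidate methylated base. Each is the 29 nt of the transcript, written 5′ to 3′, around the DRACH match nearest to the median summit of the 4 lists, with the 5 bases of the match in capitals (GRCm38 coordinates). A match is a description of the letters and does not show which A was methylated. The printed match was the nearest to the strongest summit in all 4 lists at the Tgfb3 5′ UTR and at Acvr2a, and at the other 7 sites at least 1 list had another match nearer.
Tgfb2 3′ UTR, chr1:186624759-186624787, minus strand: tgagttgttataGGACTaagcaagtcttc
Tgfb3 5′ UTR, chr12:86078766-86078794, minus strand: aagagaagcaagGGACAgaagccatggcc
Tgfb3 coding sequence, chr12:86077784-86077812, minus strand: gaagccattaggGGACAgatcttgagcaa
Tgfbr2 coding sequence, chr9:116109879-116109907, minus strand: actcctcgtggaAAACAgagaaggacatc
Tgfbr2 3′ UTR, chr9:116090261-116090289, minus strand: ctggaaaaccaaGGACTtgctcccttctt
Bmpr1a 3′ UTR, chr14:34414443-34414471, minus strand: ggaataggatgtTGACTtggtttccagac
Bmpr2 coding sequence, chr1:59867900-59867928, plus strand: gactggacaacaGGACTtcacacaggctg
Acvr1 3′ UTR, chr2:58447291-58447319, minus strand: ttcacaccacaaAGACTtaacggtgggca
Acvr2a 3′ UTR, chr2:48899884-48899912, plus strand: aggatgcctccaGGACAtgtacgcaagca

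All 54 summits had a DRACH match on the transcript strand within 50 nt. The motif is short, and 94.9% to 96.2% of all summits had one too. GGACT, the form of the motif that the writer complex is known to favour, stood within 50 nt of 24.8% ± 3.83 (SD, n = 4 lists) of the summits of these genes and of 19.7% to 23.6% of all summits, a difference within the spread between lists. Of the 9 sites, Tgfb2, the Tgfbr2 3′ UTR and Bmpr2 had a GGACT in the window and 7 had a GGAC of any kind. Bmpr1a and Acvr1 had none, with 4 other DRACH matches each.

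Among the ligands, Tgfb2 carried the most fragments. Tgfb2 (ENSMUSG00000039239.14, chromosome 1, minus strand) encodes the TGF-beta isoform best known for its part in heart and vessel development. Its 1 region spanned 1137 bp, from the end of the coding sequence far into the 3′ UTR of 1230 nt, and held 14 summits. The strongest lay 668 and 650 nt past the first base of the stop codon in shCTR A and B and 687 and 681 nt past it in shMettl14 A and B. The GGACT shown above, whose A is at 677 nt, was the nearest match in 3 lists, and the shCTR B summit was nearest to a TGACC. Pileup there was 79 and 68 fragments in shCTR A and B and 43 and 50 fragments in shMettl14 A and B. Fold enrichment over the local background was 22.8, 25.1, 16.4 and 19.2 in the same order. Ranked by fold enrichment within its own list, with 100 as the strongest peak, the site stood at the percentiles 98.6, 99.2, 95.7 and 96.0.

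Both shMettl14 lists were below both shCTR lists at this Tgfb2 site on each of these measures. By percentile, groups that lie apart with shMettl14 lower were found in 14.3% of all 4929 regions with a peak in every list, so the pattern is common. By fragments, which are not scaled for depth, 37% of those regions were apart with shMettl14 lower, and so were 5 of the 9 regions here (Tgfb2, both Tgfb3 regions, Bmpr1a and Bmpr2). The change in rank was -0.68 ± 0.49 normal scores (SE, limma, 2 against 2 lists, adjusted p = 0.999), and it did not pass the test. Fisher's exact test set the summed fragments of each group against the group's total over the 4929 regions. It gave a log2 ratio of these shares of -0.37 at an unadjusted p of 0.0597, the smallest among the 9 regions.

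Closer to the Tgfb2 stop codon a weaker summit stood in every list, at 76 and 85 nt in shCTR A and B and at 47 and 36 nt in shMettl14 A and B. It had 43, 43, 29 and 23 fragments in that order. The shCTR and shMettl14 summits had different nearest DRACH matches, and both stretches are shown as further candidate sites, the first around the match nearest to the shCTR summits and the other around a match nearest to the midpoint of the shMettl14 summits.
Tgfb2 near the stop codon, shCTR summits, chr1:186625354-186625382, minus strand: ccatgatgtttgTGACAggagggagggag
Tgfb2 near the stop codon, shMettl14 summits, chr1:186625397-186625425, minus strand: cgaaaatcacggTGACAatgacatataat
Both shMettl14 lists split off a further summit at 168 and 164 nt, with 30 and 26 fragments, where the shCTR lists called none. Chosen after its values were seen, this difference counts summits inside an interval that all 4 lists share.

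Tgfb3 (ENSMUSG00000021253.7, chromosome 12, minus strand), the isoform known for its part in palate and lung development, had 2 regions. The stronger lay in coding sequence, 162 and 135 nt past the start codon in shCTR A and B and 186 and 151 nt past it in shMettl14 A and B. It had 35, 44, 32 and 33 fragments and fold enrichments of 6.71, 13.1, 9.69 and 13.9. Its percentiles were 35.0 and 82.8 in the shCTR lists and 72.1 and 86.5 in the shMettl14 lists. The groups overlapped, and the 2 shCTR lists were farther apart than the group means.

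The other Tgfb3 region lay in the 5′ UTR, at -898 to -872 nt relative to the start codon. It had the largest change of the 9 regions. Percentiles were 7.14 and 17.2 in shCTR A and B and 54.6 and 41.5 in shMettl14 A and B, so both shMettl14 lists stood above both shCTR lists. Groups apart in this direction were found in 17.3% of the 4929 regions. The change was 1.16 ± 0.50 normal scores with an unadjusted p of 0.0303 and an adjusted p of 0.951 (limma), so it did not pass.

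At the Tgfb3 5′ UTR site the fragments bound by the antibody hardly differed between lists, with a pileup of 16, 16, 15 and 14. The background, the number of fragments to be expected at the summit from the input and the surroundings, was 2.75 and 2.06 in the shCTR lists and 1.05 and 1.03 in the shMettl14 lists. Fold enrichment was 4.53, 5.55, 7.80 and 7.38. The higher rank in shMettl14 thus came with a lower background. Both shMettl14 backgrounds were below both shCTR backgrounds at 6 of the 9 regions and at 42.4% of all 4929, and neither fragments nor background are scaled for depth. Ranks of the pileup alone were close, at the percentiles 49.8, 49.0, 52.9 and 53.3. The non-coding gene Gm48008 lies across this site on the plus strand, and the lists carry no strand, so a peak on it and a peak on Tgfb3 cannot be told apart.

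**Figure D2:**
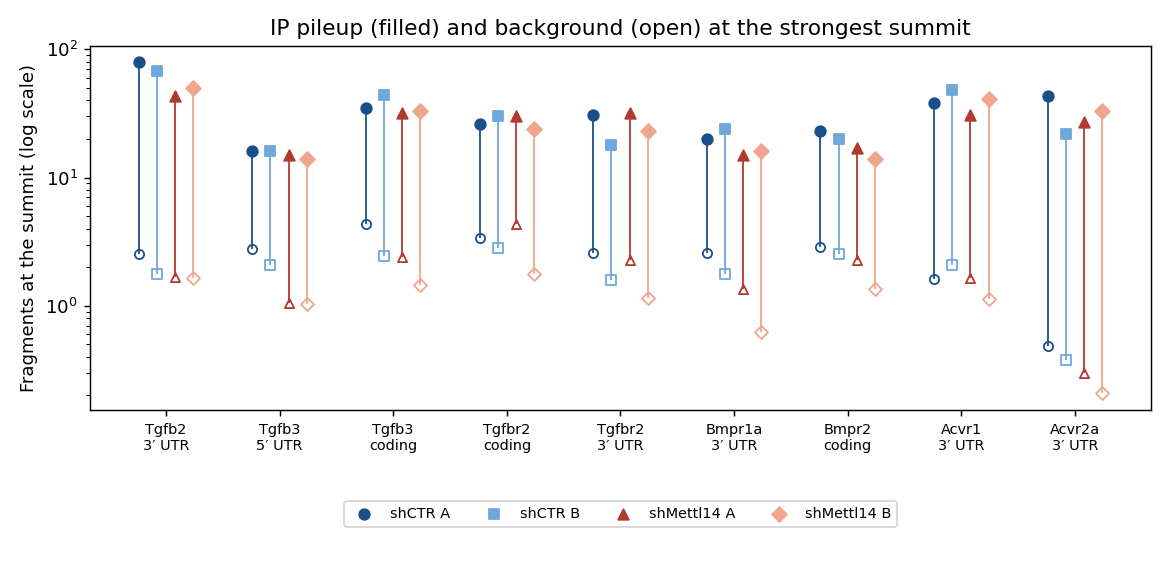
IP fragments (filled) and background (open) at the strongest summit of each of the 9 regions found in all 4 lists (log y axis, number of fragments), by list. At the Tgfb3 5′ UTR the pileup is 14 to 16 in all lists while the background is lower in both shMettl14 lists, and Acvr2a has the lowest background.

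Tgfb1 (ENSMUSG00000002603.15), the isoform most studied in vascular injury, had 1 summit in 1 list. It lay in the 5′ UTR in shMettl14 A (chr7:25687392-25687577) with 8 fragments, at the 14.6 percentile of its list. Of all summits 18.5% to 25.1% had 8 fragments or fewer. Whether the other 3 lists had signal below the threshold cannot be seen from the peaks.

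Tgfbr2 (ENSMUSG00000032440.13, chromosome 9, minus strand), the type II receptor that binds TGF-beta, also had 2 regions. In the 3′ UTR the summit lay 109 and 73 nt past the stop codon in shCTR A and B and 131 and 114 nt past it in shMettl14 A and B, with the GGACT at 105 nt as the nearest match in 3 lists and a TGACT in shCTR B. Pileup was 31, 18, 32 and 23 fragments and fold enrichment 8.92, 7.33, 10.1 and 11.1. Percentiles were 60.9 and 41.9 in shCTR and 75.2 and 74.3 in shMettl14. Both shMettl14 lists were thus higher in rank, and with the 5′ UTR of Tgfb3 this made 2 of 9 regions apart in that direction, beside the 17.3% of all regions. The change of 0.67 ± 0.50 normal scores did not pass (limma, adjusted p = 0.999), and the pileups of the groups overlapped.

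In the coding sequence of Tgfbr2, in the part 920 to 961 nt past the start codon, pileup was 26 and 30 fragments in shCTR and 30 and 24 in shMettl14. Percentiles ran from 26.1 to 59.1 and the groups overlapped. Tgfbr3, the coreceptor betaglycan that presents TGF-beta to the signalling receptors, had a summit 95 nt past the stop codon in shCTR A and 86 nt past it in shMettl14 A, and none in either B list. With 11 and 10 fragments and percentiles of 26.5 and 25.9, this peak was called in 1 list of each group, the list with more summits. Of all regions 6.79% were in both A lists and neither B list.

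Tgfbr1 (ENSMUSG00000007613.15, chromosome 4), the type I kinase that works with Tgfbr2, had no summit in any exon in any of the 4 lists, although its 3′ UTR of 4154 nt is the third longest of the 10. The receptor pair of TGF-beta thus differed in called m6A, with 9 summits on Tgfbr2 and 0 on Tgfbr1. Transcript levels were not measured by these lists, and a low level of Tgfbr1 and a lack of m6A on it cannot be told apart.

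Of the BMP and activin receptors, Acvr2a and Acvr1 had peaks among the strongest of each list. Acvr2a (ENSMUSG00000052155.5, chromosome 2, plus strand) is a type II receptor for activins and BMPs. Its summits lay 97 and 94 nt past the stop codon in shCTR A and B and 103 and 105 nt past it in shMettl14 A and B, 7 to 18 nt before the A of the GGACA shown above. Fold enrichment was 29.6 and 16.7 in the shCTR lists and 21.5 and 28.2 in the shMettl14 lists. That ranked 18 of 11158 summits, 635 of 8655, 112 of 13675 and 31 of 9256.

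The high fold enrichment of Acvr2a came with a background of 0.485 and 0.375 fragments in the shCTR lists and 0.301 and 0.207 in the shMettl14 lists, the lowest of the 9 regions. Its pileup was 43, 22, 27 and 33 fragments, which by itself ranked at the percentiles 90.6, 65.7, 82.7 and 90.2. By fold enrichment and by pileup the groups overlapped. Both shMettl14 backgrounds were below both shCTR backgrounds, as at 42.4% of all 4929 regions. The change in rank was 0.33 ± 0.55 normal scores.

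Acvr1 (ENSMUSG00000026836.15, chromosome 2, minus strand) is a type I receptor for BMPs, known for the activating mutations that turn soft tissue to bone. Its strongest summit lay 229 and 233 nt past the stop codon in shCTR A and B and 262 and 273 nt past it in shMettl14 A and B. Pileup was 38, 48, 31 and 41 fragments, fold enrichment 14.9, 16.0, 12.1 and 19.7, and the percentiles 89.6, 91.2, 85.1 and 96.3. By fold enrichment and percentile the shMettl14 lists lay on either side of the shCTR lists, by pileup the groups overlapped, and the change was 0.05 ± 0.52 normal scores.

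Both shMettl14 lists called another Acvr1 summit at the stop codon itself, at 4 nt relative to its first base in shMettl14 A and at -15 nt in shMettl14 B. It had 27 and 17 fragments and stood at the percentiles 84.5 and 65.4. The shCTR lists called no summit there, although their intervals cover the place, so it adds no region to either group. The sequence is shown for its position, around the DRACH match nearest to the midpoint of these summits and just before the tga stop codon. The summit of shMettl14 A itself was nearest to a TGACC that begins with the stop codon, and that of shMettl14 B to an AGACA.
Acvr1 stop codon, chr2:58447532-58447560, minus strand: caaattaaaaacTGACTgttgaccttgtc

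Bmpr1a (ENSMUSG00000021796.15, chromosome 14, minus strand), a type I receptor for BMPs, had 1 summit per list just past its stop codon, at 69 and 32 nt in shCTR A and B and at 99 and 93 nt in shMettl14 A and B. Pileup was 20 and 24 fragments in the shCTR lists and 15 and 16 in the shMettl14 lists, while fold enrichment was 5.85, 8.99, 6.80 and 10.5. By fragments both shMettl14 lists were lower, as in 37% of all regions, and by the percentile of fold enrichment (22.2, 59.3, 41.1 and 70.0) the groups overlapped. Direction at Bmpr1a depended on the measure, as the change in rank was 0.43 ± 0.55 for fold enrichment and -0.27 for pileup.

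Bmpr2 (ENSMUSG00000067336.6, chromosome 1, plus strand), the type II BMP receptor whose loss is known to cause heritable pulmonary arterial hypertension, has the longest 3′ UTR of the 10, at 8529 nt, but no summit in it. Its region lay in coding sequence, with the strongest summit of each list at -952 to -890 nt relative to the stop codon and a further summit at -737 nt in shMettl14 A. The GGACT shown above, with its A at -950 nt, was the nearest match in 3 lists, and the shCTR B summit at -890 nt was nearest to a GAACC. Pileup was 23, 20, 17 and 14 fragments and the percentiles were 28.7, 22.8, 22.0 and 28.9. By fragments both shMettl14 lists were lower, and by the percentile of fold enrichment the groups overlapped. The change in rank was 0.003 ± 0.497 normal scores for fold enrichment and -0.22 for pileup, so here too the value depended on the measure.

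Ordered by the mean percentile of their highest region over the 4 lists, the genes ran Acvr2a (97.8 ± 3.47, SD, n = 4 lists), Tgfb2 (97.4 ± 1.77), Acvr1 (90.6 ± 4.59), Tgfb3 (69.1 ± 23.6), Tgfbr2 (63.1 ± 15.6), Bmpr1a (48.1 ± 21.01) and Bmpr2 (25.6 ± 3.69). The ranges over lists overlapped between all neighbours in this order. Compared within each list, Acvr1 was above Tgfb3 in 4 of 4 lists, and the other neighbours kept this order in 2 or 3 of the 4. Among these 7 genes Bmpr2, at 22.0 to 28.9, lay below the lowest list of the others except Bmpr1a, and Acvr2a, Tgfb2 and Acvr1 lay above the highest list of Tgfbr2, Bmpr1a and Bmpr2. The percentile ranks enrichment and not the share of molecules methylated, and a peak on an abundant transcript is called more easily.

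**Figure D3:**
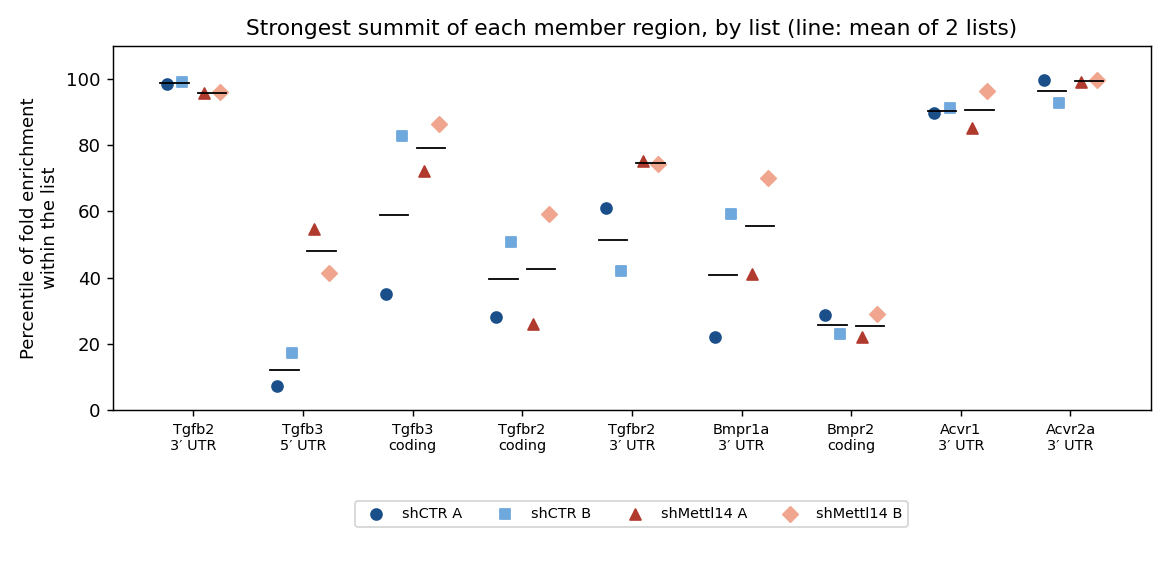
Percentile of fold enrichment within the list (y axis, 100 is the strongest peak of a list) of the strongest summit in each of the 9 regions found in all 4 lists, with 1 point per list and a line at the mean of each group. The groups are apart at Tgfb2 (shMettl14 lower), the Tgfb3 5′ UTR and the Tgfbr2 3′ UTR (shMettl14 higher) and overlap at the other 6.

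Across all regions, the rank test called 0 of 4929 (0% at an adjusted p under 0.05, limma), with 4.93% at an unadjusted p under 0.05. Of the 9 regions of these genes 1, the Tgfb3 5′ UTR, was under 0.05 unadjusted, and the smallest adjusted p among them was 0.951. Fisher's exact test on summed fragments called 0 regions after adjustment and 126 before it, none of them among the 9. When a log2 ratio over 1 in size was also required, 22 of the 4929 regions and 0 of the 9 passed unadjusted. Tests of rank are blind to a loss of m6A that is equal at all sites.

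In normal scores rank was higher in shMettl14 at 8 of the 9 regions and lower at Tgfb2, with a median change of 0.33. By mean percentile 7 were higher and 2, Tgfb2 and Bmpr2, lower. Over all 4929 regions 50.1% were higher and the median change was 0.002. The count of 8 depended on which lists were used. Without shMettl14 A it stayed at 8 higher and 1 lower. Without shCTR A 4 regions were higher and 5 lower, without shMettl14 B 4 were higher and 5 lower, and without shCTR B 6 were higher and 3 lower. With ranks of the pileup in place of fold enrichment 6 were higher and 3 lower as well. The median change moved too, to 0.66 without shMettl14 A and 0.48 without shCTR B. It was -0.07 without shCTR A, -0.10 without shMettl14 B and 0.05 with ranks of the pileup. The mean percentile of the strongest summits in the 9 regions was 57.1 ± 6.89 in shCTR and 68.0 ± 6.37 in shMettl14 (SD, n = 2), a difference of 10.8 with an exact permutation p of 0.333, the smallest that 2 against 2 lists can give. Over all regions the same difference was 0.335.

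**Figure D4:**
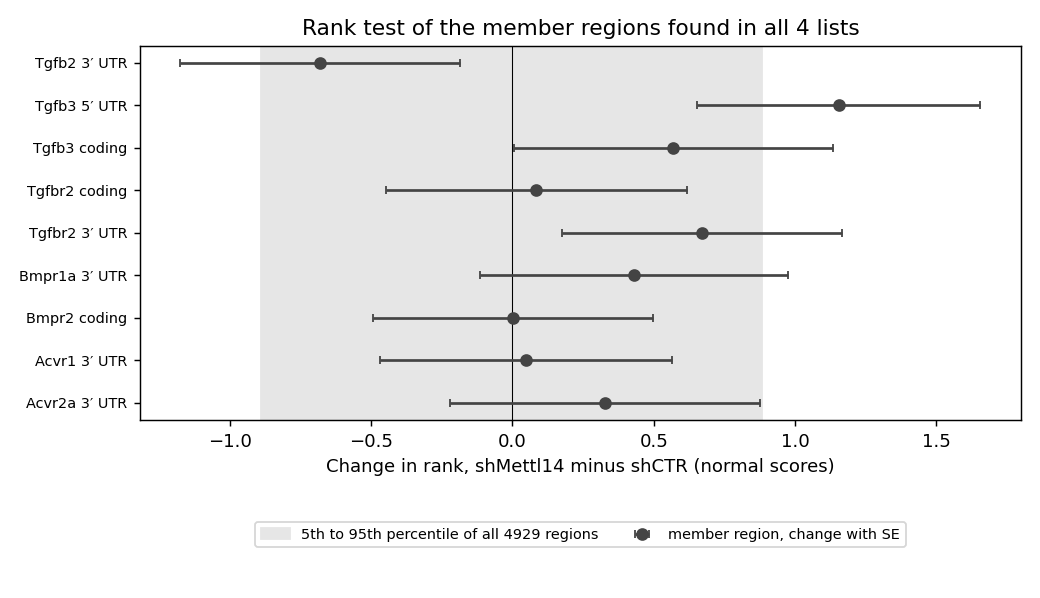
Change in rank of fold enrichment, shMettl14 minus shCTR, in normal scores (x axis), with its SE, for the 9 regions found in all 4 lists. The shaded band spans the 5th to 95th percentile of the change over all 4929 regions. Only the Tgfb3 5′ UTR lies outside the band, and its adjusted p is 0.951.

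These genes had 12 and 10 summits in shCTR A and B and 19 and 13 in shMettl14 A and B. The means of 11 ± 1.41 and 16 ± 4.24 (SD, n = 2) gave a ratio of 1.45 (exact permutation p = 0.333, two-sided). For all exonic summits the ratio was 1.17. Counted as intervals, of which 1 can hold several summits, the same genes gave 9.5 ± 0.707 and 10 ± 1.41 and a ratio of 1.05 (exact permutation p = 1). Higher summit counts in shMettl14 therefore came from more summits per interval, chiefly on Tgfb2 (3 and 2 against 5 and 4) and Acvr1 (1 and 1 against 3 and 2). The mean percentile over all summits of these genes was 55.8 ± 11.9 in shCTR and 57.0 ± 14.1 in shMettl14 (exact permutation p = 1). By list it was 47.4 and 64.2 in shCTR A and B and 47.1 and 67.0 in shMettl14 A and B. Both A lists were thus below both B lists, and what set the letters apart was not tested.

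Summits in the same region were not at the same base in each list. Measured along the transcript from the mean of the 4 lists, the median summit of the 9 regions lay at -4.25 and -16.2 nt in shCTR A and B and at 15.5 and 5.25 nt in shMettl14 A and B, where positive is toward the 3′ end. In shMettl14 A 9 of the 9 summits were downstream of the mean, against 76.8% over all regions, and in shMettl14 B 6 of the 9, against 69.1%. Over 4198 regions the order of the lists was the same, with medians of -4.75, -20.5, 17.0 and 8.75 nt. The shortest interval, taken here to follow the fragment length used in calling, which the sources do not give, was 141 and 170 bp in the shCTR lists and 97 and 112 bp in the shMettl14 lists, and the shift followed it list by list. Its part in the shift, and in the number of summits an interval was split into, was not tested.

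**Figure D5:**
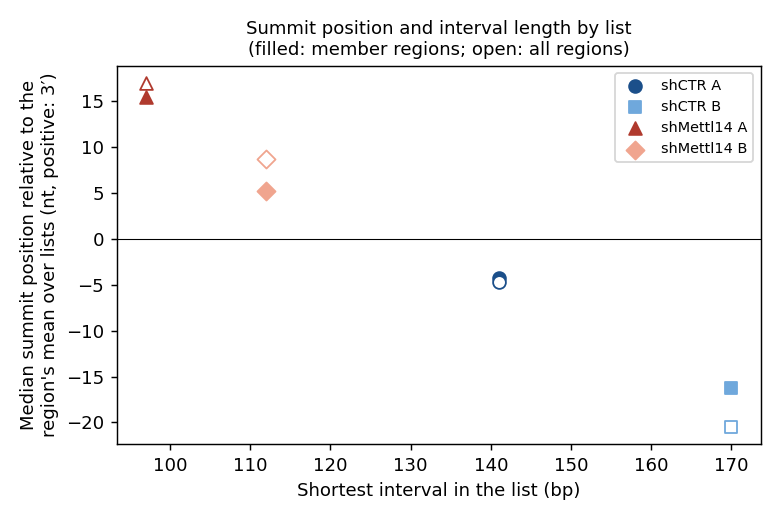
Median summit position relative to the mean of the region's 4 summits (y axis, nt, positive toward the 3′ end) against the shortest interval of each list (x axis, bp), for the 9 regions (filled) and for 4198 regions (open). Lists with longer intervals have summits farther toward the 5′ end, in both sets.

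Other genes of the pathway carried m6A peaks too. Of 57 further genes, taken from lists of ligands, receptors, latency proteins, antagonists and Smads, 37 had a summit and 28 had one in every list, beside 16.1% of all genes with a complete coding transcript. These genes were chosen for the pathway, and no part of the difference was tested. By list, 10 of 16 other ligands, 6 of 10 other receptors and coreceptors, 7 of 10 latency and matrix proteins, 7 of 13 antagonists and 7 of 8 Smads had a summit. Their 40 regions present in all 4 lists were higher in rank in shMettl14 at 26 and lower at 14, with a median change of 0.09, beside 50.1% higher and a median of 0.002 over all regions. None passed at an adjusted p under 0.05 (limma), and 1 was under 0.05 unadjusted.

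The 6 of these genes with the most summits all exceeded the 14 of Tgfb2, although summit number also grows with transcript level and length. Emilin1, a matrix protein known to hold back the maturation of TGF-beta, had 7 and 9 summits in the shCTR lists and 11 and 6 in the shMettl14 lists. Smad7, the inhibitory Smad that the pathway itself induces, had 7, 6, 9 and 7. Lrrc32, which anchors latent TGF-beta on the cell surface, had 6, 4, 10 and 6, and Thbs1, an activator of latent TGF-beta, had 5, 4, 9 and 3. The activin subunits Inhbb and Inhba had 4, 8, 5 and 8 and 5, 4, 7 and 6 summits. None of these counts was tested. Smad7 reached the percentiles 95.6, 97.6, 98.0 and 99.3, near the level of Tgfb2 and Acvr2a, while Thbs1 stayed between 32.3 and 55.2.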

How the data were processed

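The authors aligned m6A-RIP-seq reads to the mouse genome (GRCm38, mm10) with STAR, used SAMtools to keep reads that mapped to 1 place only, and ran MACS2 on each IP with the matching input as control. Versions and options are not given in the sources used here. The deposited lists give, per summit, a fold enrichment (a ratio to local background) and the −log10 p and −log10 q values, which were 2.01 or higher for q. The authors' 2 overlap files give intervals shared by both replicates, with no value. Read totals were not analysed here. Peaks were called per replicate, and the 4 inputs have no file of their own.

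Pileup and background were recovered by solving MACS2's fold enrichment (with 1 added to each) and Poisson p-value together, and a whole-number pileup matched in 100% of summits within 0.000151 in −log10 p. Recovered fragments are not independent molecules and their counting error is not the spread between samples. Summits were placed in exons of GENCODE M21. Positions are on the longest complete coding transcript of a gene (21606 genes), and sequences come from those transcripts. Regions were intervals merged at 1 bp or more. A percentile is the rank of fold enrichment within a list. For 4929 regions in all 4 lists, normal scores of that rank were compared with limma 3.58.1 (R 4.3.3, two-sided), with Benjamini-Hochberg adjustment over all of them and a threshold of 0.05. Simulated scores for this comparison with 4929 regions were given shifts of 2 or 4 normal scores. Of these shifts 72% and 100% were recovered, with 7 false calls. The simulated errors were normal with 1 spread common to all regions, and the shifts had no upper bound. Real scores are bounded and their spread differs between regions, so these rates may not hold for the data. Fisher's exact test, the one in the study's methods, was run on recovered fragments summed per group, and so sets these libraries against each other. Each sum was set against its group's total over the 4929 regions, so the log2 ratios are ratios of shares. Single values were compared by exact permutation tests, which cannot go below p = 0.333. Alternatives were other measures, other peak and region filters, a replicate block and leaving out each list. The letters A and B were not taken as pairs, since the deviations of the A lists from their group means correlated at r = 0.08 over 4929 regions.

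The 10 genes, the gene lists and the windows were chosen with earlier results of these data known. The genes named with values were all 10, with the highest region of each in full, and of the other pathway genes the 6 with the most summits. Lesser regions are given with values too, chosen after they were seen. Of 57 pathway symbols 56 were annotated. Protein sequences were not used here. Tables were computed in Python 3.11.15 with scipy 1.17.1, pandas 2.3.3 and numpy 2.4.6.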

Additional observations from a re-analysis of the deposited data

How the results depend on the processing

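With 2 lists per group and 8 to 79 fragments at the strongest summits, only large changes in a single peak could have been called. The rank test called 0 regions under every alternative measure, filter and joining rule and with a replicate block (292 unadjusted), and 0 to 3 when 1 list was left out. The 3 came without shMettl14 A, and the cause was not tested. With a list left out its group has 1 list, which is assumed to vary like the lists of the other group, so these counts are weak evidence either way. The change in mean percentile of the TGF-beta and BMP summits was 1.24, which a replicate block cannot alter in this balanced design and which other settings moved to -3.01 (−log10 p), -3.87 (pileup) and 4.44 (strongest summit per gene), and leaving out a list to between -8.71 and 11.2. Leaving out a list also left A and B unequal between the groups, and both A lists had the lower mean percentile. The ratio of summits ran from 1.05 to 1.45 under other counts and filters and from 1.18 to 1.73 without 1 list. When every list was limited to the same number of top peaks, 7 regions were in all 4 lists, and otherwise 9. Within 100 nt of the stop codon lay 29.4% of summits and within 400 nt 54.3%, and DRACH within 25 nt was found for 89.4%, as windows of these sizes must change the shares.

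Of 90 recomputed changes of the 9 regions, leaving aside the block, which cannot alter them, 74 kept their direction and 16 turned. None turned at Tgfb2, the Tgfb3 5′ UTR or the Tgfbr2 3′ UTR. At those regions the groups are apart in rank, so leaving out 1 list could not have turned the direction. Log2 ratios of Fisher's exact test are again of shares of the group totals. Bmpr1a turned to -0.27 with ranks of pileup and to -0.21 (log2) with Fisher's exact test. Bmpr2 turned to -0.25 with ranks of −log10 p, -0.22 with ranks of pileup, -0.18 (log2) with Fisher's exact test and -0.10 with −log10 q of at least 5. Without 1 list the change ran from -0.26 to 1.40 at the Tgfb3 coding region, -0.49 to 0.66 at the Tgfbr2 coding region, -0.18 to 1.04 at Bmpr1a, -0.24 to 0.24 at Bmpr2, -0.48 to 0.57 at Acvr1 and -0.45 to 1.11 at Acvr2a. The causes of these turns were not tested.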
